A study of Mus musculus with 2 samples.

Results

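The genes described here are the collagen and laminin chains of the mouse genome, chosen by symbol alone: Col, a number, a and a number, or Lam, one of a, b or c, and a number. The rule used no measured value and found 55 genes, 44 collagen and 11 laminin chains, among the 32285 genes listed. The question was which of these chains were supplied by feeder cells, endoderm-like cells, trophoblast-like cells and pluripotent cells in each library. The cells were embryonic stem cells of the inbred strain C3H/HeSn-Paf/J, from 9 independently derived XX, XO and XY lines that were pooled before capture. They grew on gelatin with irradiated mouse embryonic fibroblast feeders in serum medium with LIF, a cytokine that keeps stem cells undifferentiated. One library was made at an early passage (time 1) and one from the same pool after 10 further passages (time 2), so the cells of a library are not replicates, no p-value was computed, and the line, sex chromosomes and feeder batch behind a cell are not known here. Every interval below is exact, at 95%, and covers counting error only.

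Collagens are secreted trimers wound from alpha chains. The fibrillar types I, III and V build the fibres of connective tissue and are textbook products of fibroblasts, collagen VI forms beaded filaments around them, and collagen IV forms the sheet-like network of basement membranes. Laminins are trimers of 1 alpha, 1 beta and 1 gamma chain and are the first basement membrane proteins of the embryo; the endoderm that lines the blastocyst cavity lays down laminin-111 (chains from Lama1, Lamb1 and Lamc1) and collagen IV, while laminin-511 (Lama5, Lamb1 and Lamc1) supports the attachment of pluripotent cells.

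The files listed 145288 barcodes at time 1 and 52242 at time 2, with 1735810403 and 1843588321 UMIs (unique molecular identifiers, each counted as 1 captured transcript). After filters on UMIs, genes, mitochondrial share and doublets, 24435 and 25914 cells were kept, with medians of 44135 and 50576 UMIs, and 166 cell barcodes occurred in both libraries. Clusters were made without any of the 55 genes and named from marker lists that hold none of them, so the levels below did not help to define the classes. The fibroblast-like class, which stands for the feeders, held 530 cells at time 1 and 544 at time 2. The endoderm-like class held 40 and 85 cells, the trophoblast-like class 87 and 78, and the pluripotent stem cell-like class 2095 and 20544. The pluripotent class was mostly 1 cluster led by Usp26 at time 1 (1913 cells) and mostly 2 others at time 2, led by 1700097N02Rik (10895 cells) and Nanos3 (7435 cells). Most other cells of time 1 lay in primed epiblast-like cells (6666) and in 2 clusters left unnamed, led by H19 (7902) and by Notch2 and Spry2 (6455). The Spry2-led cluster had 12 pluripotency markers at 10 CPM or more and was set apart by an exception to the naming rule. By the rule alone it would have joined the pluripotent class.

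The labels of the classes held against their markers, with limits. In fibroblast-like cells 9 of 10 fibroblast markers reached 10 CPM (UMIs per 1000000 UMIs of the class) in both libraries, in endoderm-like cells 11 of 13 endoderm markers did, and in trophoblast-like cells 8 and 7 of 11 trophoblast markers did; the placental Tpbpa had no UMI there. None of the 10 fibroblast markers reached 10 CPM in the other 3 classes. Pluripotency markers were found in all classes. Over 12 pluripotency markers, the level in fibroblast-like cells was 18.8 to 49.1% of that in pluripotent cells at time 1 (median 31.2%) and 25.6 to 35.3% at time 2 (median 30.7%). The medians in endoderm-like cells were 39.2 and 30.5%, and in trophoblast-like cells 40.2 and 34.0%. Levels of shared chains in fibroblast-like cells are therefore also given below with RNA removed in proportion to these markers.

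Of the 55 chains, 13 reached 100 CPM in at least 1 of the 4 classes, 16 peaked between 10 and 100 CPM, 11 between 1 and 10, and 15 stayed under 1 CPM everywhere. The 15 lowest were Col4a3, Col4a4, Col4a6, Col6a4, Col6a6, Col8a2, Col9a1, Col11a2, Col14a1, Col17a1, Col19a1, Col22a1, Col25a1, Lamb3 and Lamc3. The 11 between 1 and 10 CPM were led by Col13a1, at 9.86 CPM in endoderm-like cells at time 2, and Col2a1, the chain of cartilage collagen II, at 8.35 and 1.07 CPM in pluripotent cells. The others of that range were Col6a5, Col9a3, Col15a1, Col20a1, Col24a1, Col26a1, Col28a1, Lama2 and Lama3. At a level of at least 10 CPM, fibroblast-like cells held 23 chains at time 1 and 25 at time 2, endoderm-like cells 9 and 9, trophoblast-like cells 8 and 7, and pluripotent cells 6 and 4. Summed over all collagen chains, the level was 2971 and 3017 CPM in fibroblast-like cells, 930 and 2008 in endoderm-like cells, 362 and 387 in trophoblast-like cells and 169 and 98.8 in pluripotent cells. Summed over all laminin chains the order changed: endoderm-like cells held 849 and 1946 CPM, fibroblast-like cells 166 and 166, trophoblast-like cells 156 and 153, and pluripotent cells 101 and 87.5. These are counts of 3′ ends, 1 per transcript, so they are not scaled by length, and a level is best compared for 1 gene between classes.

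**Figure D1:**
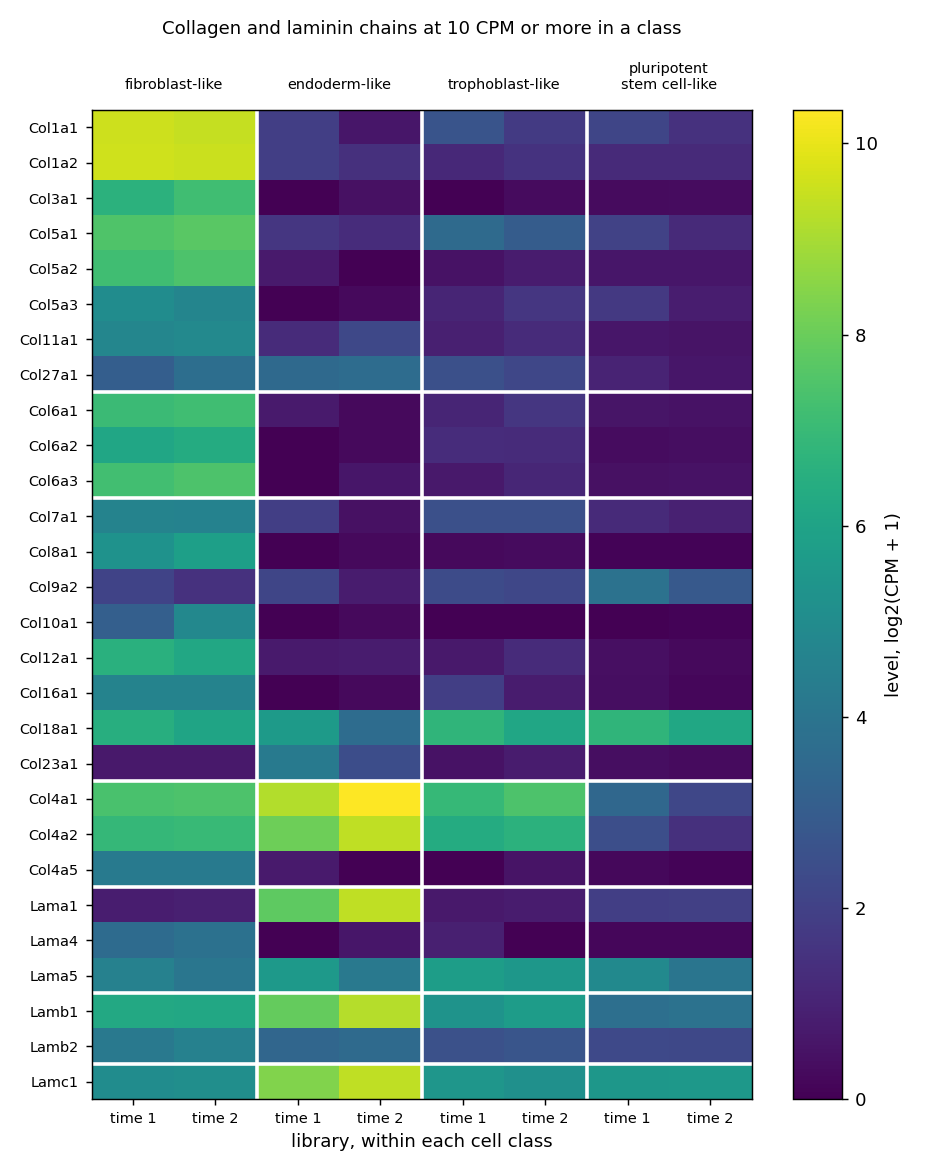
Levels of chains that reached 10 CPM in at least 1 class, as log2(CPM + 1), by cell class and library; rows are grouped as fibrillar collagens, collagen VI, other collagens, collagen IV and the laminin alpha, beta and gamma chains. Fibroblast-like cells are brightest for Col1a1 and Col1a2 (764 and 769 CPM at time 1), endoderm-like cells for Col4a1 (564 and 1306 CPM).

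Upstream sequence is shown first for 6 chains that stand for the patterns described below: Col1a2, Col3a1 and Col5a1, which were highest in fibroblast-like cells, Lamb1, which was higher in all 3 other classes than in pluripotent cells, and Col18a1 and Lama5, which pluripotent cells also held. Each is a stretch of 120 bases before the RefSeq transcript start (GRCm38.p6), moved upstream past any annotated exon. The Col1a2 stretch lies before the RefSeq start at 4505618 but inside the annotated gene, which begins at 4504814. The sequences are written 5′ to 3′ on the gene's strand, and capitals mark any of 4 short motifs on either strand.
Col1a2, chr6:4505373-4505492, plus strand: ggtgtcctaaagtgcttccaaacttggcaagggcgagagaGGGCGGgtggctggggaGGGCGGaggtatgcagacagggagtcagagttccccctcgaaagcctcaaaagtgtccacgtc
Col3a1, chr1:45311418-45311537, plus strand: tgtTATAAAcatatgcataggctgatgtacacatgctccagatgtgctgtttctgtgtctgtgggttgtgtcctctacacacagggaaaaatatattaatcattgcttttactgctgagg
Col5a1, chr2:27886305-27886424, plus strand: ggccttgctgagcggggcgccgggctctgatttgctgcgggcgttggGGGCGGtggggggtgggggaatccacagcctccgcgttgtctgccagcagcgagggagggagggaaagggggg
Lamb1, chr12:31265114-31265233, plus strand: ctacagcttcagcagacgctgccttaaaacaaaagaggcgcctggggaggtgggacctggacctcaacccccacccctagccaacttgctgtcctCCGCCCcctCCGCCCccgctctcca
Col18a1, chr10:77166549-77166668, minus strand: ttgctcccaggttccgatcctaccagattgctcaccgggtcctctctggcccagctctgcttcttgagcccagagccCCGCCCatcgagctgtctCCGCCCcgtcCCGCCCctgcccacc
Lama5, chr2:180225860-180225979, minus strand: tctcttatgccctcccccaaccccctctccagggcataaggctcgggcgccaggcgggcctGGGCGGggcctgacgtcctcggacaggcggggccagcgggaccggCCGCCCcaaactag

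The capitals are TATAAA in the Col3a1 stretch and GGGCGG or its complement CCGCCC in the other 5. The stretches of Col6a1 and Col6a3, collagen VI chains that were also highest in fibroblast-like cells, held none of the 4 motifs and are not printed. Over the 250 bases before the start, GGGCGG or CCGCCC was found in 24 of the 44 windows of the 40 chains in the RefSeq table, and in 32.7% of all 32851 windows there. CCAAT or ATTGG was found in 14 of 44 windows against 33.8% of all, TATAAA or TTTATA in 5 against 12.4%, and GATAA or TTATC in 7 against 22.6%. A match is a description of letters, not a binding site. Col4a1 and Col4a2 lie head to head on chromosome 8, with starts 21 bases apart on opposite strands (11312826 and 11312805, GRCm38). Chromosome 1 held 10 of the 55 chains, among them Col3a1, Col5a2, Col6a3 and Lamc1.

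The fibrillar chains of collagens I, III and V had their highest level in fibroblast-like cells in both libraries. Col1a1, an alpha chain of collagen I, had 764 CPM there at time 1 (21656 UMIs) and 686 at time 2 (24309 UMIs). In pluripotent cells Col1a1 had 3.52 and 1.81 CPM, in trophoblast-like cells 5.42 and 2.36, and in endoderm-like cells 2.80 and 0.558. Col1a2, the other collagen I chain, had 769 and 737 CPM in fibroblast-like cells and at most 2.80 CPM in each of the other 3 classes. The groups are far apart in both libraries: pluripotent cells held Col1a2 at 0.175% of the fibroblast-like level at time 1 (0.151 to 0.202%) and 0.184% at time 2 (0.175 to 0.193%). This was 12.5 and 4.18% of the Col1a2 level in barcodes of 100 to 1000 UMIs, so the pluripotent level is not resolved from free RNA and no fold is given.

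Col3a1, the chain of collagen III, had 99.7 CPM in fibroblast-like cells at time 1 and 143 at time 2. It had no UMI in endoderm-like cells at time 1, where 3 UMIs would be 2.10 CPM, and at most 0.372 CPM otherwise in endoderm-like, trophoblast-like and pluripotent cells. The collagen V chains Col5a1 and Col5a2, which set the width of collagen I fibres, had 181 and 208 CPM and 144 and 177 CPM in fibroblast-like cells. Col5a1 was also found elsewhere, at 10.8 and 7.09 CPM in trophoblast-like cells and 3.07 and 1.33 CPM in pluripotent cells. The pluripotent level of Col5a1 was 29.9 and 8.61% of that in barcodes of 100 to 1000 UMIs. With RNA in proportion to these barcodes removed, by an amount scaled to the fibroblast markers, Col5a1 was at 0.498 and 0.102 CPM in pluripotent cells and at 11.2 and 6.18 CPM in trophoblast-like cells. Col5a3 and Col11a1, at 31.4 and 25.2 CPM and 26.3 and 28.4 CPM, also had their highest level there in both libraries. Other fibrillar chains did not: Col2a1 had 3.42 and 4.18 CPM in fibroblast-like cells, below the 8.35 CPM of pluripotent cells at time 1, and Col27a1 had 7.45 and 12.4 CPM against 10.5 and 11.5 in endoderm-like cells, within the counting intervals of those cells.

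Collagen VI needs 3 different chains, and all 3 were found in fibroblast-like cells. Col6a1 had 132 CPM at time 1 and 142 at time 2, Col6a2 69.7 and 82.0, and Col6a3 148 and 174. In the other 3 classes no collagen VI chain passed 2.13 CPM. Among other collagens, Col12a1 and Col16a1, which associate with fibrils, Col7a1, which forms anchoring fibrils, and Col8a1, a network chain, also had their highest level in fibroblast-like cells. Their levels there were 93.9 and 73.9, 23.9 and 23.7, 24.0 and 23.0, and 38.0 and 55.7 CPM.

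In all, 21 chains at time 1 and 22 at time 2 had a mean of at least 10 CPM over fibroblast-like and pluripotent cells. A chain high in 1 class alone passes this filter through that class. The counts and medians therefore describe the chains and are not support for a difference of the families. Of these, 18 were past 2-fold higher in fibroblast-like cells at time 1, against 16.0% of all 7609 genes so compared, and 19 at time 2, against 19.7% of 7363. None was past 2-fold lower in either library, where 12.7 and 14.4% of all genes were. The median log2 ratio over the chains was 4.40 at time 1 and 5.39 at time 2, beside −0.15 and −0.14 over all genes. The same 18 chains were called in both libraries, and the other one, Col10a1, a chain of hypertrophic cartilage, passed only at time 2. The 3 chains that did not pass in either library were Lamc1, Lama5 and Col18a1. With barcode RNA in an amount set by the pluripotency markers removed from fibroblast-like cells, Col1a2 was at 1482 and 1327 CPM and Col18a1 at 4.38 and 42.7. Lama5 and Col18a1 (time 1) and Lamc1 (time 2) were then past 2-fold lower. With classes taken from marker UMIs per cell in place of clusters, Col1a2 was at 429 and 706 CPM. Those classes went by the most UMIs of the fibroblast, endoderm and trophoblast lists, if 10 or more. Kept cells of any cluster with fewer than 3 UMIs of each list made up its pluripotent class, without use of pluripotency markers.

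The share of cells told the same of Col1a1. With each cell thinned to 10000 UMIs, 74.5% of fibroblast-like cells held a Col1a1 UMI at time 1 (70.6 to 78.2%) and 74.8% at time 2 (70.9 to 78.4%), against 4.11% (3.30 to 5.05%) and 1.66% (1.49 to 1.85%) of pluripotent cells. Without thinning, the fibroblast-like shares were 87.2 and 84.7% and the pluripotent shares 19.5 and 9.90%, at median depths of 41164 and 53708 UMIs and of 61946 and 51570 UMIs. The pluripotent Col1a1 level was 10.8 and 3.53% of that in barcodes of 100 to 1000 UMIs, and 27.0 and 9.21% of that in barcodes of 1000 to 2500 UMIs.

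The endoderm-like class was set apart by the 2 main collagen IV chains and the 3 chains of laminin-111. Col4a1 had 564 CPM in endoderm-like cells at time 1 (804 UMIs, 525 to 604) and 1306 at time 2 (7019 UMIs, 1276 to 1337). The same chain had 167 and 175 CPM in fibroblast-like cells, 122 and 174 in trophoblast-like cells and 10.1 and 3.66 in pluripotent cells. Its partner Col4a2 had 264 and 651 CPM in endoderm-like cells, 118 and 124 in fibroblast-like cells, 82.6 and 101 in trophoblast-like cells and 4.64 and 1.68 in pluripotent cells. For both chains the order endoderm-like, fibroblast-like, trophoblast-like, pluripotent held in both libraries in the clustered classes, although at time 2 the fibroblast-like and trophoblast-like levels of Col4a1 differed by less than their counting intervals. With classes taken from marker UMIs per cell in place of clusters, fibroblast-like cells lay above endoderm-like cells at time 1, at 96.3 against 69.3 CPM for Col4a1 and 67.4 against 31.4 CPM for Col4a2. With RNA in proportion to barcodes of few UMIs removed from the other classes, trophoblast-like cells lay above fibroblast-like cells for Col4a1 in both libraries, at 191 and 191 CPM, and for Col4a2 at time 1, at 132 CPM. With such RNA removed from fibroblast-like cells as well, scaled to the pluripotency markers, these cells stood above trophoblast-like cells again. They were at 311 and 304 CPM for Col4a1 and 224 and 215 CPM for Col4a2.

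Lama1, the alpha chain of laminin-111, had 217 CPM in endoderm-like cells at time 1 (310 UMIs, 194 to 243) and 663 at time 2 (3563 UMIs, 642 to 685). It had 2.76 and 2.87 CPM in pluripotent cells, 0.776 and 0.875 in fibroblast-like cells and 3 UMIs in trophoblast-like cells of each library. Lamb1, the beta chain, had 238 and 588 CPM in endoderm-like cells, 75.4 and 72.6 in fibroblast-like cells, 39.2 and 52.5 in trophoblast-like cells and 12.9 and 14.1 in pluripotent cells. Lamc1, the gamma chain shared by most laminins, had 335 and 663 CPM in endoderm-like cells but a narrow range elsewhere: 31.9 and 33.6 in fibroblast-like cells, 42.3 and 35.7 in trophoblast-like cells and 43.0 and 44.9 in pluripotent cells.

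Of 7 chains with a mean of at least 10 CPM over endoderm-like and pluripotent cells, 5 were past 2-fold higher in endoderm-like cells in both libraries: Col4a1, Col4a2, Lama1, Lamb1 and Lamc1. The share of all genes past 2-fold higher was 9.71% of 7321 at time 1 and 15.2% of 7052 at time 2. Col18a1 was past 2-fold lower in both, where 6.64 and 7.22% of all genes were. Col18a1, whose C-terminal piece is endostatin, had 48.4 and 11.5 CPM in endoderm-like cells and 110 and 70.7 in pluripotent cells. Lama5 did not pass, at 45.6 and 17.1 CPM against 29.4 and 15.4. The median log2 ratio of the 7 chains was 4.10 and 5.28, beside 0.02 and 0.06 over all genes. Here too a chain high in endoderm-like cells alone, such as Lama1, passes the filter through them. The counts and the median therefore describe the chains and are not support for a difference of the families. With classes taken from marker UMIs per cell, the same 5 chains were past 2-fold higher in both libraries, but their endoderm-like levels were lower, at 21.7 and 256 CPM for Lama1, 54.3 and 252 for Lamb1, 64.7 and 276 for Lamc1, 69.3 and 581 for Col4a1 and 31.4 and 297 for Col4a2. The Col18a1 call was lost there at time 1, with 68.2 CPM against 98.7 in the pluripotent class of that setting. The direction turned at time 2, with 81.1 against 68.8 CPM.

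Trophoblast-like cells held fewer chains. Col4a1, Col4a2 and Lamb1 were past 2-fold higher than in pluripotent cells in both libraries, of 6 chains compared in each. These counts describe the chains only, since a chain can pass the filter through trophoblast-like cells alone. Lama5 joined them at time 2, with 43.3 CPM against 15.4, after 54.0 against 29.4 at time 1, a ratio of 1.84 (1.61 to 2.09) that did not pass. Of all genes, 10.6% of 7449 and 12.8% of 7126 were past 2-fold higher, and 5.48 and 5.39% past 2-fold lower, where no chain was. The Col4a1 level was 12 times the pluripotent one at time 1 (10.9 to 13.3) and 47.6 times at time 2 (43.9 to 51.4), where the pluripotent level itself was 10.1 and then 3.66 CPM. The pluripotent level was 71.1 and 17.0% of that in barcodes of few UMIs. With RNA in proportion to such barcodes removed, trophoblast-like against pluripotent Col4a1 was 191 against 8.64 CPM at time 1. At time 2 it was 191 against 2.10 CPM, so the size of these ratios depends on how free RNA is treated. In the Usp26-led cluster alone, pluripotent Col4a1 was at 10.7 and 9.28 CPM. How far the trophoblast-like to pluripotent ratio rose at time 2 therefore depends on which clusters make up the pluripotent class. With classes from marker UMIs per cell the trophoblast-like levels were 17.7 and 70.7 CPM for Col4a1 and 10.9 and 42.5 for Col4a2. Col4a1 was then the 1 chain past 2-fold higher at time 1, where Lamb1 had 24.1 CPM against 22.8 in the pluripotent class of that setting. Col4a2 was under the minimum mean of 10 CPM there, and at time 2 Lama5 no longer passed. That pluripotent class takes in cells of other clusters, and Lamb1 was at 12.9 CPM in the clustered pluripotent class at time 1. Lamc1 in trophoblast-like cells was 0.982 times the pluripotent level at time 1 (0.847 to 1.13) and 0.795 times at time 2 (0.673 to 0.933), and Col18a1 0.994 (0.908 to 1.09) and 0.983 times (0.874 to 1.10).

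The chains of pluripotent cells at 10 CPM or more in both libraries were laminin chains and Col18a1, which other classes held too. In both libraries only Col18a1, Lamc1, Lama5 and Lamb1 reached 10 CPM in pluripotent cells, with Col4a1 (10.1 CPM) and Col9a2 (14.0 CPM), a chain of cartilage collagen IX, in addition at time 1. Col18a1 and Lama5 also reached 10 CPM in every other class or cluster, in each library where it had cells. Lamc1 did so in all but an unnamed cluster of very many UMIs per cell at time 1. Col18a1, Lama5 and Lamc1 therefore do not mark pluripotent cells. Lamc1, at 43.0 and 44.9 CPM, was 135% of its fibroblast-like level at time 1 (126 to 145%) and 134% at time 2 (126 to 142%). Lama5 was at 130 and 96.4% and Col18a1 at 124 and 108% of the fibroblast-like level. These shares depend on how background RNA in the fibroblast-like profile is treated. RNA with the profile of barcodes of 100 to 1000 UMIs was removed there, 48.5 and 45.6% of the UMIs by the pluripotency markers. Fibroblast-like cells were then at 22.6 and 16.3 CPM for Lamc1 (from 31.9 and 33.6) and at 4.38 and 42.7 CPM for Col18a1 (from 88.5 and 65.5). Lamb1 was at 17.1 and 19.4%, and Lamb2, the beta chain of laminins of muscle and kidney, at 22 and 16.9%. Col18a1, Lamc1 and Lama5 were also present in barcodes of few UMIs, at 178 and 92.8, 41.9 and 54.3, and 54.8 and 34.1 CPM, as was Lamb1, at 42.4 and 33.7 CPM. When RNA in proportion to such barcodes was removed, Lamb1 in pluripotent cells was at 2.40 CPM at time 1 and 12.4 at time 2, Lamc1 at 43.4 and 44.1 CPM and Col18a1 at 85.2 and 68.8 CPM. Before removal, pluripotent Lamc1 was at 103 and 82.6% of its level in these barcodes. Such removal could therefore move Lamc1 little, and its value does not tell cell RNA from free RNA. Lama1 was not among the chains at 10 CPM, but 2.82% of pluripotent cells thinned to 10000 UMIs held a Lama1 UMI at time 1 (2.15 to 3.62%) and 2.65% at time 2 (2.43 to 2.88%), against 0.566% (0.117 to 1.65%) and 0.368% (0.0446 to 1.32%) of fibroblast-like cells. Unthinned, the shares were 14.7 and 13.8% of pluripotent and 3.40 and 4.6% of fibroblast-like cells. The pluripotent Lama1 level was at 95.3 and 41.6% of that in barcodes of 100 to 1000 UMIs, which was 2.90 and 6.90 CPM.

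Whether the low collagen levels of pluripotent cells exceed background was read against the 10 fibroblast markers, taken as genes of other cells. The markers stood at a median of 0.773% of their fibroblast-like level in pluripotent cells at time 1 (0.0905 to 7.22%) and 0.356% at time 2 (0.136 to 4.23%). Lamc1, Lama5, Col18a1, Lamb1 and Lamb2 lay above every marker in both libraries. A chain not specific to fibroblasts can lie above them whether or not its RNA is free, so this does not show a level over background. Of the 23 and 25 chains at 10 CPM or more in fibroblast-like cells, 17 and 19 lay within the range of the markers, among them the chains of collagens I and III and Col6a1, Col6a2 and Col6a3. Col1a1 was at 0.461 and 0.264% and Col3a1 at 0.245 and 0.195%. Col4a1 was at 6.05 and 2.09% and Col4a2 at 3.92 and 1.35%, inside that range but above its median in both libraries. The top of the range at time 1 was set by Twist1 alone, which stood in pluripotent cells at 147% of its level in barcodes of 100 to 1000 UMIs and so is not shown to be background there. The 7 markers with at least 50 CPM in fibroblast-like cells ended at 3.62% at time 1, below both collagen IV chains, and at 4.23% at time 2, above both. Against barcodes of 100 to 1000 UMIs, Col4a1 in pluripotent cells was at 71.1 and 17.0% and Col4a2 at 76.6 and 11.6%, and against barcodes of 1000 to 2500 UMIs at 99.4 and 25.8% and at 86.3 and 23.2%. Against the barcodes of 100 to 1000 UMIs, Lamb1 was at 30.5 and 41.9%, Lamb2 at 42.6 and 48.8% and Lama5 at 53.7 and 45.1%. Col18a1 was at 61.6 and 76.2% and Lamc1 at 103 and 82.6%. The markers with UMIs in these barcodes ran from 9.10 to 147% at time 1 and from 2.79 to 45.3% at time 2. With RNA in proportion to the barcodes of 100 to 1000 UMIs removed, by an amount scaled to the fibroblast markers (26.3 and 8.01% of the pluripotent UMIs), chains as low as the markers go to 0 by construction, and Col4a1 was at 8.64 and 2.10 CPM and Col4a2 at 4.13 and 0.568 CPM. The amount rests on the summed level of all 10 markers, of which Twist1 gave 3.47 of 11.6 CPM at time 1. It may therefore be too large at time 1, here and wherever this removal is used. The amount without Twist1 was not computed.

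**Figure D2:**
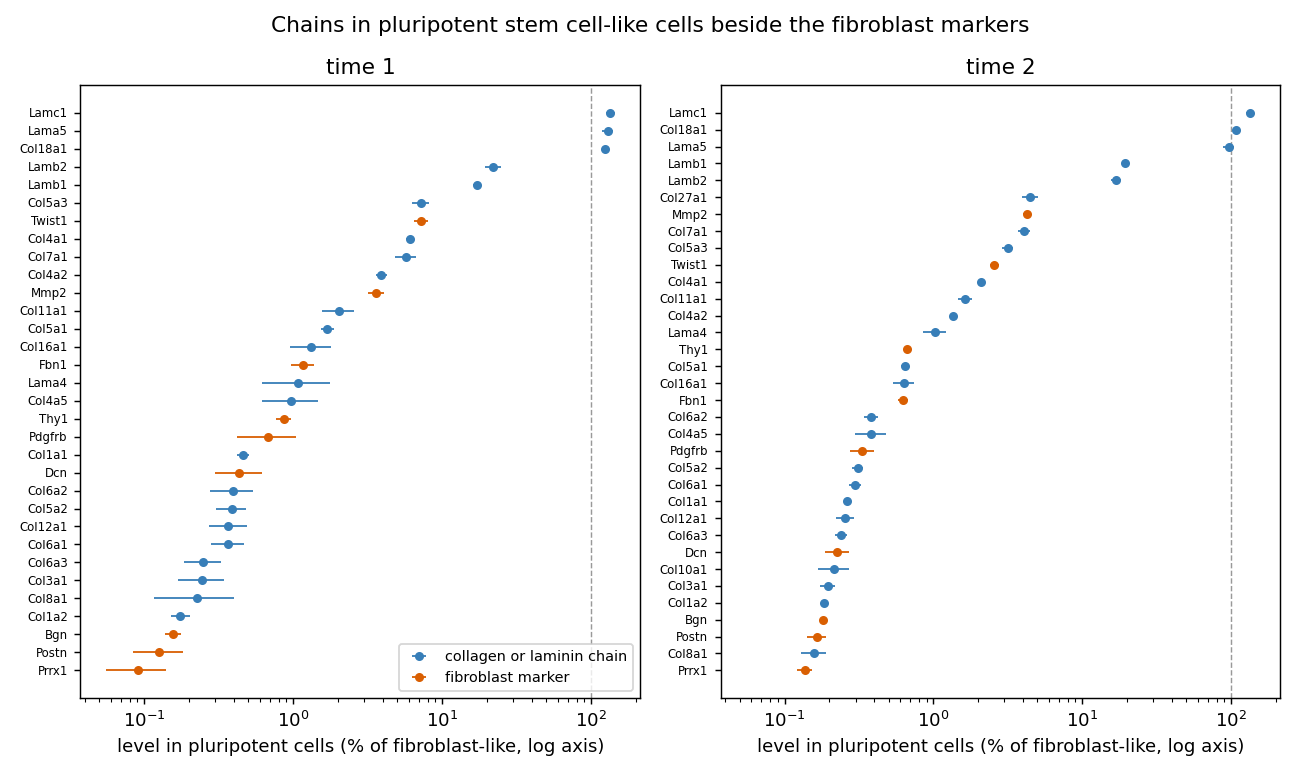
Level in pluripotent stem cell-like cells as a percentage of that in fibroblast-like cells (log axis) for chains (blue) and fibroblast markers (orange) with at least 10 CPM in fibroblast-like cells, with exact 95% counting intervals; the dashed line is an equal level. Lamc1, Lama5 and Col18a1 lie near the line in both libraries, while Col1a2 lies at 0.175 and 0.184% among the markers.

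Barcodes of 100 to 1000 UMIs were taken as samples of free RNA, though the lowest listed had 500 and 524 UMIs. There were 4449 and 7491 of them, beside 85530 and 7189 barcodes of 1000 to 2500 UMIs. The barcodes of 100 to 1000 UMIs held Col1a1 at 32.7 and 51.4 CPM and Col1a2 at 10.8 and 32.4 CPM. The ratio of Col1a1 to Col1a2 UMIs was 0.994 (0.976 to 1.01) and 0.932 (0.916 to 0.948) in fibroblast-like cells, 3.02 (2.11 to 4.42) and 1.59 (1.29 to 1.95) in these barcodes, and 2.62 (2.21 to 3.12) and 1.34 (1.26 to 1.43) in pluripotent cells. The ratio in pluripotent cells lay outside the interval of fibroblast-like cells and inside that of these barcodes in both libraries. In barcodes of 1000 to 2500 UMIs the ratio was 1.5 (1.39 to 1.63) and 1.36 (1.12 to 1.65), below the pluripotent ratio at time 1, so the match at time 1 rests on the 124 and 41 UMIs of the lower barcodes. Other pairs differed. Col4a1 to Col4a2 was 2.18 (1.98 to 2.40) and 2.18 (2.07 to 2.30) in pluripotent cells, inside the interval of the barcodes of 100 to 1000 UMIs at time 1, 2.35 (1.42 to 4.01, from 54 and 23 UMIs), and above it at time 2, 1.49 (1.09 to 2.06). In barcodes of 1000 to 2500 UMIs Col4a1 to Col4a2 was 1.89 (1.72 to 2.08) and 1.96 (1.51 to 2.54), so neither library gave the same reading with both sets of barcodes. Lamb1 to Lamc1 was lower in pluripotent cells than in barcodes of 100 to 1000 UMIs, at 0.301 against 1.01 (0.808 to 1.27) at time 1 and 0.314 against 0.619 (0.506 to 0.757) at time 2, and than in barcodes of 1000 to 2500 UMIs, at 0.781 (0.749 to 0.814) and 0.648 (0.562 to 0.747). What sets the ratio in these barcodes was not tested.

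Ratios of partner chains can be compared between classes, since each uses the same 2 genes. Col4a1 to Col4a2 was 1.41 in fibroblast-like cells in both libraries (1.35 to 1.48 and 1.36 to 1.47) and 2.14 (1.89 to 2.42) and 2.01 (1.93 to 2.09) in endoderm-like cells, so the 2 classes differed beyond counting error although the genes share a start region. Trophoblast-like cells lay between at time 2, at 1.72 (1.53 to 1.95), and overlapped the fibroblast-like interval at time 1, at 1.47 (1.29 to 1.68). In endoderm-like cells Lama1 to Lamc1 was 0.649 and 1.00 and Lamb1 to Lamc1 0.711 and 0.887, against 0.0642 and 0.0639 and 0.301 and 0.314 in pluripotent cells. Lama5 to Lamc1 was 1.28 and 1.21 in trophoblast-like cells, 0.683 and 0.342 in pluripotent cells and 0.136 and 0.0258 in endoderm-like cells. Lama4, the alpha chain of laminins of mesenchyme and vessels, had 11.3 and 13.4 CPM in fibroblast-like cells and at most 0.867 CPM in the other 3 classes.

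Shares of each chain's UMIs over all kept cells depend on how many cells of each class were captured, so they describe the sequenced suspension and not the culture dish. Fibroblast-like cells held 2.28 and 2.31% of all UMIs but 86.2% of those of Col1a2 at time 1 and 92.3% at time 2, and 79.4 and 88.1% of those of Col1a1. Their share was 85.4 and 90.7% for Col3a1, 86.0 and 90.5% for Col6a3, and 54.6 and 70.6% for Col5a1. Endoderm-like cells held 0.115 and 0.350% of all UMIs but 16.5% of the Lama1 UMIs at time 1 (14.8 to 18.2%) and 47.7% at time 2 (46.6 to 48.9%). Nearly all other Lama1 UMIs at time 2, 47.8%, lay in the pluripotent class, whose level is low but which held 81.1% of all UMIs.

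Collagen IV UMIs were spread over several classes. At time 1 the Col4a1 UMIs were 30.5% fibroblast-like, 24.6% primed epiblast-like, 12.3% in the Spry2-led and 7.57% in the H19-led cluster, 9.07% pluripotent, 5.18% endoderm-like, 4.29% endothelial-like and 3.62% trophoblast-like. At time 2 they were 26.6% fibroblast-like, 30.2% endoderm-like, 19.5% pluripotent, 10.9% endothelial-like, 7.02% mesendoderm-like and 3.16% trophoblast-like. The shares of the large classes came with low levels. At time 1 Col4a1 was at 10.6 CPM in primed epiblast-like and 10.1 in pluripotent cells, against 167 in fibroblast-like cells. It was at 8.30 CPM in the Spry2-led and 2.76 in the H19-led cluster. At time 2 it was at 3.66 CPM in pluripotent and 175 in fibroblast-like cells. The pluripotent levels were 71.1 and 17.0% of those in barcodes of few UMIs. How much of the pluripotent shares is free RNA was not tested. The laminin chains lay with the bulk of the cells: of all laminin UMIs, 34.6% were primed epiblast-like, 29.5% in the H19-led and 15.8% in the Spry2-led cluster and 11% pluripotent at time 1, and 73.4% pluripotent, 11.1% mesendoderm-like and 7.06% endoderm-like at time 2. Fibroblast-like cells held 3.72 and 3.98% of them, and 30.7 and 38.7% of all collagen UMIs. At time 1 the summed laminin level was 122 CPM in primed epiblast-like and 101 in pluripotent cells. It was 87.9 CPM in the H19-led and 87.6 in the Spry2-led cluster. At time 2 it was 87.5 CPM in pluripotent, 91.2 in mesendoderm-like and 1946 in endoderm-like cells. Endothelial-like cells held Col18a1 at 173 and 238 CPM, above the level in each of the 4 classes.

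**Figure D3:**
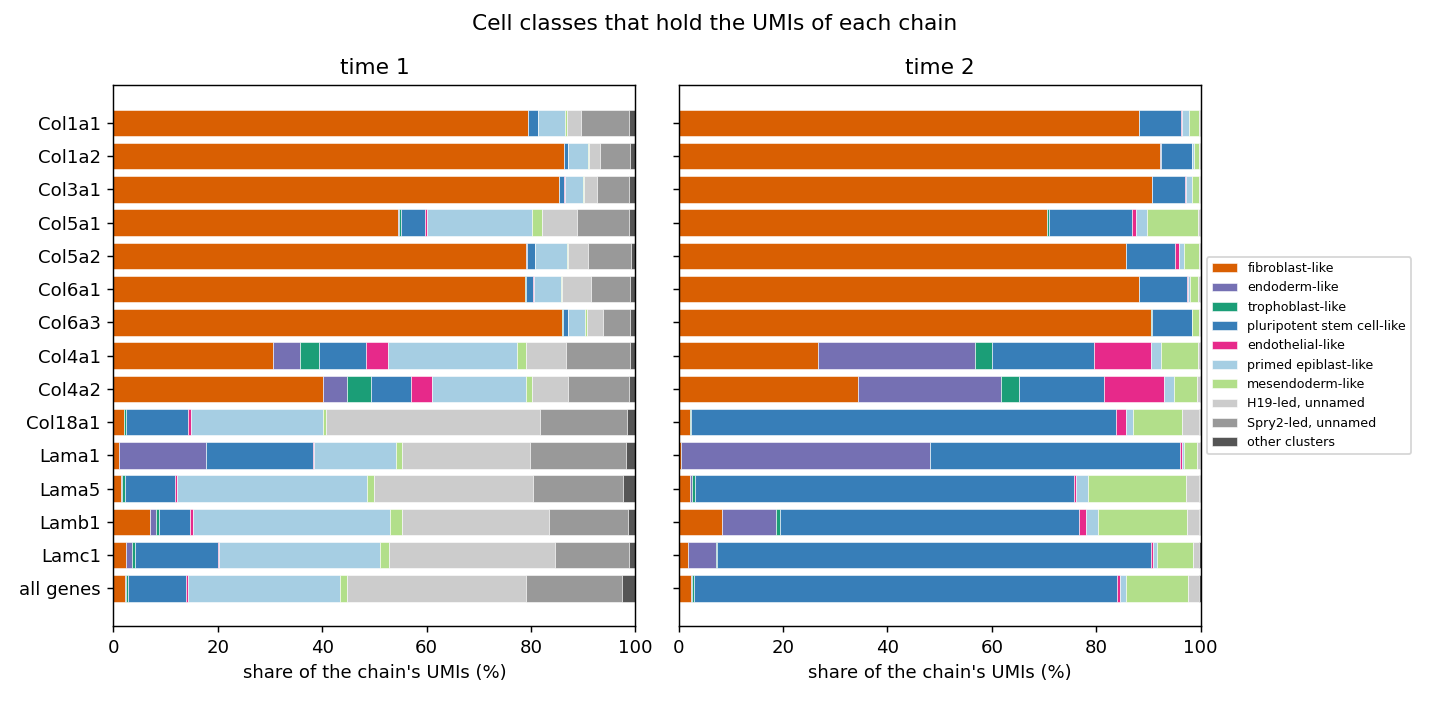
Share of each chain's UMIs held by each cell class over all kept cells, by library, with the share of all UMIs in the bar of all genes. Fibroblast-like cells (orange) hold most of the collagen I, III, V and VI UMIs, and endoderm-like cells (purple) 47.7% of those of Lama1 at time 2.

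Between the libraries, few chains of fibroblast-like cells differed. Of 24 chains compared, 1 was past 2-fold higher at time 2, Col10a1, which went from 7.76 to 27.8 CPM (3.58 times, 3.09 to 4.16), and none was past 2-fold lower, beside 0.491 and 1.23% of 7536 genes. The median log2 change of the 24 chains was 0.07. Trophoblast-like cells had no chain past 2-fold in either direction of 7 compared, beside 0.391 and 1.33% of 7424 genes. Col18a1 was at 109 and 69.5 CPM there and Col4a1 at 122 and 174 CPM. In pluripotent cells Col9a2 was past 2-fold lower at time 2, from 14.0 to 6.33 CPM, and no chain was past 2-fold higher, of 5 compared and beside 2.86 and 0.732% of 6965 genes. With classes from marker UMIs per cell, 5 fibroblast-like chains were past 2-fold higher at time 2, Col3a1, Col5a2, Col6a3, Col8a1 and Col10a1, as were Col4a1 and Col4a2 in trophoblast-like cells. In the pluripotent class of that setting, which takes in cells of other clusters, Lama5 was lower in place of Col9a2. The Col9a2 call was absent when the Usp26-led cluster, which holds many cells of both libraries, was taken alone. Col18a1 was 110 and 70.7 CPM in pluripotent cells and Lama5 29.4 and 15.4 CPM, both below 2-fold.

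Endoderm-like cells had more chains past 2-fold. Of 10 chains compared, Lama1, Lamb1, Col4a1 and Col4a2 were past 2-fold higher at time 2 and Lama5, Col18a1 and Col23a1, a membrane-bound collagen, past 2-fold lower, beside 5.16 and 5.66% of 7231 genes. Lama1 was 3.05 times its time 1 level (2.72 to 3.44), Lamb1 2.47 times (2.2 to 2.77), Col4a1 2.32 times (2.15 to 2.50) and Col4a2 2.47 times (2.22 to 2.75). Lamc1, at 1.98 times (1.80 to 2.18), lay just under the threshold. With the UMI threshold for a cell raised from 0.1 to 0.2 times the 99th percentile, none of the 4 higher chains passed: Lama1 had 323 and 613 CPM, Lamb1 316 and 532, Col4a1 764 and 1169, and Col4a2 346 and 578, while the 3 lower chains passed again. With classes from marker UMIs per cell, the 4 chains and Lamc1 were past 2-fold higher, but of the 3 lower chains Lama5 alone passed, and the direction of Col18a1 turned, from 68.2 CPM at time 1 to 81.1 at time 2. The class itself was not alike in the 2 libraries: 11 of its 13 own markers were higher at time 2, with a median log2 change of 0.82, and the median depth was 26610 UMIs at time 1 and 55531 at time 2.

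Cell by cell, the time 1 class was mixed. Lama1 had no UMI in 20 of the 40 cells and up to 11.2 per 10000 UMIs in others, with a median of 0.0705, whereas at time 2 it had none in 1 of 85 cells and a median of 5.71. When the class was divided by the endoderm factors Gata4 and Gata6, 15 of 40 cells at time 1 and 82 of 85 at time 2 held 5 or more UMIs of the pair. In those 15 cells, at a median of 43778 UMIs, Lama1 had 282 CPM, Lamb1 345, Lamc1 518, Col4a1 826 and Col4a2 366, and the pluripotency marker Dppa5a 2182. In the other 25, at a median of 22744 UMIs, Lama1 had 142 CPM, Lamc1 120 and Col4a1 255, and Dppa5a 5050. Among cells with 5 or more, only Lama1 stayed past 2-fold higher at time 2 (669 CPM), while Lama5, Col18a1 and Col23a1 stayed past 2-fold lower, beside 4.91 and 7.29% of 7272 genes. The time 1 cells of that division also held Cer1 and Otx2, genes of anterior visceral endoderm, at 149 and 178 CPM, against 4.57 and 17.9 at time 2. In the marker lists used here Cer1 stands for mesendoderm and Otx2 for primed epiblast, so these genes do not name the cells. Fewer cells with endoderm chains and less of each chain per cell cannot be told apart in the summed level of the class.

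**Figure D4:**
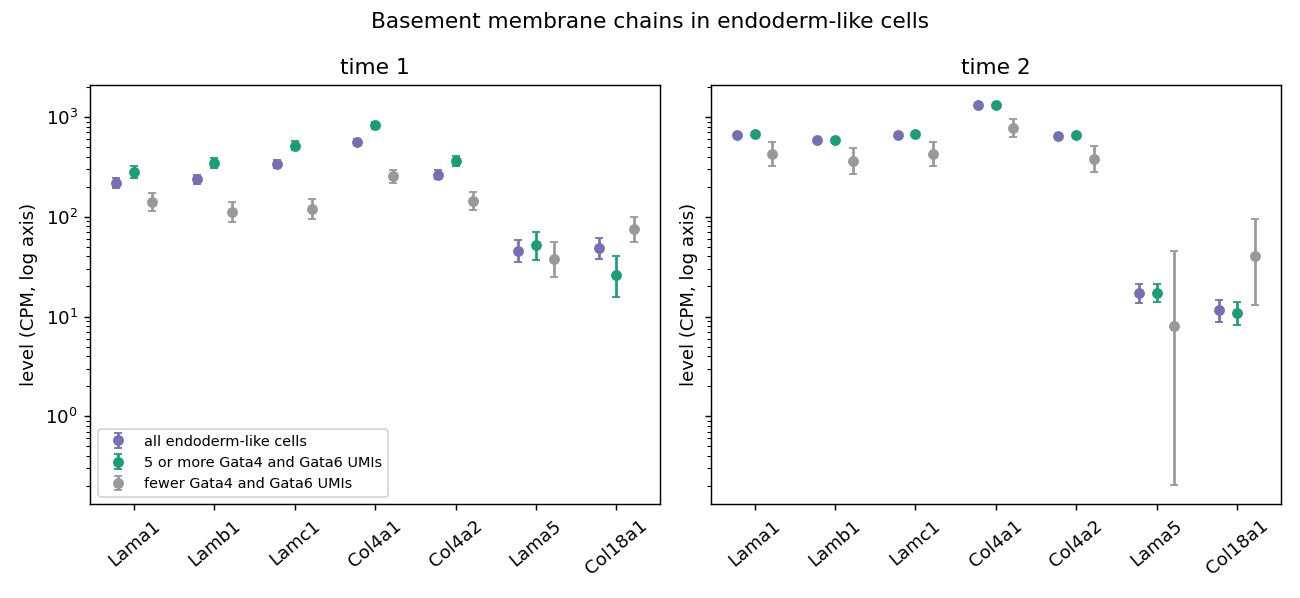
Levels of 7 basement membrane chains in all endoderm-like cells, in those with 5 or more Gata4 and Gata6 UMIs and in those with fewer, by library (log axis, exact 95% counting intervals). At time 1 the cells with fewer hold less Col4a1 (255 CPM) than those with 5 or more (826 CPM); at time 2 only 3 cells have fewer.

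The other genes of the pathway were read from 3 lists. Beside their counts, 16.0 and 19.7% of all genes were past 2-fold higher in fibroblast-like cells, 9.71 and 15.2% in endoderm-like and 10.6 and 12.8% in trophoblast-like cells, and 12.7 and 14.4%, 6.64 and 7.22%, and 5.48 and 5.39% past 2-fold lower. Of 11 partners of the basement membrane, 6 were compared in fibroblast-like cells of each library: Fn1, Hspg2, Sparc and Nid1 were past 2-fold higher than in pluripotent cells and Nid2 past 2-fold lower in both. Fibronectin (Fn1) had 1901 and 1320 CPM there and Sparc, which binds collagen, 1640 and 2205. In endoderm-like cells Sparc had 2002 and 2281 CPM, 1 of 7 partners was higher at time 1 and 5 of 6 at time 2, and Fn1 was lower in both. In trophoblast-like cells Hspg2, perlecan, and Sparc were higher and Nid2 lower in both libraries, and Nid1 was higher and Fn1 lower at time 2, of 6 compared in each.

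Of 20 genes that process collagen, 12 of 18 compared were past 2-fold higher in fibroblast-like cells at time 1 and 15 of 18 at time 2, with none lower. In endoderm-like cells 9 of 15 were higher at time 1 and 13 of 15 at time 2, with Pcolce lower in both, and in trophoblast-like cells 4 of 16 and 8 of 15. Serpinh1, the collagen chaperone, had 409 and 484 CPM in fibroblast-like cells, 659 and 990 in endoderm-like cells and 168 and 167 in trophoblast-like cells. Of 14 receptors, Itgb1, the beta subunit of most collagen and laminin integrins, was past 2-fold higher in all 3 classes and both libraries, at 981 and 971 CPM in fibroblast-like cells against 57.4 and 70.1 in pluripotent cells. In fibroblast-like cells 2 of 6 receptors were higher in each library, Itgb1 and Ddr2, and Bcam was lower at time 2. In endoderm-like cells Itgb1 was the 1 receptor higher, of 5 compared at time 1 and 4 at time 2, and Itga6 and Bcam were lower at time 2. In trophoblast-like cells 5 of 6 receptors were higher in both libraries, Itga3, Itga6, Itgb1, Dag1 and Ddr1, and Dag1, dystroglycan, had 142 and 172 CPM there.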

How the data were processed

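Single cells of both time points were captured with 10x 3′ chemistry version 3.1, per the labels' protocols. The authors deposited UMI counts per gene and barcode, not normalised; Cell Ranger 6.1.2, bcl2fastq 2.20.0.422 and the builds mm10 and GRCm38 are named in the submitters' processing notes. A barcode was kept as a cell from 18315 UMIs at time 1 and 18646 at time 2, which is 0.1 times the 99th percentile over the 20000 barcodes with most UMIs, if it had 1000 genes or more and no more than 10% mitochondrial UMIs. Scrublet's own threshold marked too few cells, so a score of 0.25, chosen after seeing the data, removed 1301 (5.06%) and 2335 (8.27%) doublets.

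Cells were clustered without the 55 genes (2000 variable genes, 30 components, 15 neighbours, resolution 0.5) in scanpy 1.11.5 and igraph 0.11.9. Clusters were named from marker lists by a rule set with the clusters in view. The pluripotent name was a default that did not use the pluripotency markers. It went to clusters with no other class's marker among their 10 leading genes and fewer than 3 such markers at a log2 ratio of 3. Exceptions set apart clusters with Spry2 among these genes or with very many UMIs per cell. UMIs were summed per class and library, as CPM. Genes with a mean of at least 10 CPM over the pair were compared on log2(CPM + 1), and a difference past 2-fold was called. No test was made with 1 library per group, where 9 pooled lines count as 1 sample. Sums have exact Poisson and shares exact Clopper-Pearson intervals. The steps were tested on simulated counts.

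Chains with at least 100 CPM in 1 of the 4 classes (13) were to be given with values, and the 3 highest genes of each pathway list could be named. Other genes were named after their values were seen. The members and all lists were chosen with earlier results of these data known. Python 3.11.15, numpy 2.4.6, pandas 2.3.3, scipy 1.17.1, R 4.3.3 and edgeR 4.0.16 (TMM factors only, as an alternative) were used. The values of 1 member are not reported here.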

Additional observations from a re-analysis of the deposited data

Results flagged for a closer look

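Col4a1 and Col4a2 moved in opposite directions between the libraries in endoderm-like and pluripotent cells. From time 1 to time 2 the log2 change of Col4a1 was 1.21 in endoderm-like and −1.25 in pluripotent cells, a difference of 2.47. For Col4a2 the changes were 1.30 and −1.07, a difference of 2.38. In pluripotent cells both chains had a mean under 10 CPM, so neither was among the chains compared between libraries. Col4a1 there was at 71.1 and 17.0% of its level in barcodes of few UMIs, and Col4a2 at 76.6 and 11.6%. With RNA in proportion to these barcodes removed, Col4a1 was at 8.64 and 2.10 CPM and Col4a2 at 4.13 and 0.568 CPM. Whether cell RNA fell was not tested. With 1 library per time point, the difference between the endoderm-like and pluripotent changes was not tested. Both changes were smaller in subsets of the same cells: in the Usp26-led cluster alone, they were −0.18 for Col4a1 (10.7 and 9.28 CPM) and −0.17 for Col4a2 (4.89 and 4.22 CPM), and in endoderm-like cells with 5 or more Gata4 and Gata6 UMIs they were 0.67 and 0.84.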

How the results depend on the processing

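With classes from marker UMIs per cell, the log2 ratio of Col18a1 in endoderm-like cells turned from −2.52 to 0.23 against pluripotent cells at time 2 and from −1.98 to 0.25 between the libraries. No other called ratio of a named chain changed sign under the alternatives run. Among counts of chains past 2-fold, 285 alternative values stayed within 1.5 times the reported one and 49 did not. Of log2 ratios of named chains, 932 stayed within the counting interval, 717 moved beyond it and 2 changed sign, and of levels, shares and medians 785 stayed within it (medians within 1.5 times) and 491 did not. Classes from marker UMIs per cell gave 0 chains lower in endoderm-like cells at time 1 and at time 2 and 1 higher in trophoblast-like cells at time 1, and between libraries 5 fibroblast-like and 2 trophoblast-like chains higher and 1 endoderm-like chain lower. With 0.2 times the 99th percentile as UMI threshold, 0 endoderm-like chains were higher at time 2 than at time 1. With no minimum level, chains past 2-fold were 4 and 2 lower in fibroblast-like cells (time 1 and time 2), 9 and 10 higher and 6 and 4 lower in endoderm-like cells, and 8 and 10 higher and 5 and 1 lower in trophoblast-like cells. Between libraries 8 endoderm-like, 1 trophoblast-like and 4 pluripotent chains were then lower. With a mean of at least 50 CPM, 8 and 9 chains were higher in fibroblast-like and 1 and 2 in trophoblast-like cells, 0 were lower in endoderm-like cells at time 2, and between libraries 0 were higher in fibroblast-like or lower in endoderm-like and pluripotent cells. At 4-fold, 0 were lower in endoderm-like cells at time 1 and 2 higher in trophoblast-like cells at time 2. Between libraries, 0 then passed in fibroblast-like, endoderm-like or pluripotent cells. At 1.5-fold, 1 trophoblast-like and 3 pluripotent chains were lower at time 2. The Col9a2 call in pluripotent cells went to 0 with TMM scaling, a pseudocount of 5 CPM, that UMI threshold, resolution 1.0, the Usp26-led cluster alone or the Spry2-led and H19-led clusters added. Thinned cells gave 1 chain lower in trophoblast-like cells at time 1 and 1 chain higher in trophoblast-like cells at time 2 than at time 1. Background removal by pluripotent markers gave 2 and 1 chains lower in fibroblast-like cells and 2 higher at time 2. The Usp26-led cluster alone gave 1 lower in trophoblast-like cells at time 2, and the endoderm-like cells with 5 or more Gata4 and Gata6 UMIs gave 1 chain higher at time 2. The share of all chains' UMIs, with doublets kept, cells thinned and a minimum of 5000 UMIs in turn, was 22.4, 18.8 and 21.2% (fibroblast-like), 0.567, 0.757 and 0.668% (endoderm-like), 0.550, 0.512 and 0.537% (trophoblast-like) and 9.05, 7.80 and 8.65% (pluripotent) at time 1. At time 2 it was 28.7, 24.7 and 27.1%, 52.7, 54.3 and 54.1% for fibroblast-like and pluripotent cells, and with doublets kept and cells thinned 5.24 and 5.4% (endoderm-like) and 0.499 and 0.668% (trophoblast-like). The fibroblast markers at 50 CPM or more had medians of 0.436 and 0.627%. With barcodes of 1000 to 2500 UMIs as background, the median pluripotent level over all 10 fibroblast markers was 18.9% of background at time 2, from 8.01%. The cause of these shifts was not tested. The alternatives of the levels carried over to counts past 2-fold, the removal by pluripotent markers, the choices of pluripotent clusters, the Gata4 and Gata6 division and the barcodes of 1000 to 2500 UMIs were chosen after seeing the data. Barcodes of 10 to 100 UMIs were not run, since the lowest listed had 500 and 524 UMIs. No paired analysis was possible because each group is 1 library. Among the 4 classes, the depth limits endoderm-like cells most, at 40 cells and 1426604 UMIs at time 1, where 3 UMIs are 2.10 CPM.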

Other observations

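Among cells outside the 4 classes, endothelial-like cells (77 at time 1 and 166 at time 2) held Col4a1 at 154 CPM (142 to 166) and 299 CPM (287 to 311) and Col4a2 at 79.2 and 173 CPM. The ratio of Col4a1 to Col4a2 there was 1.94 (1.70 to 2.22) and 1.73 (1.62 to 1.85), and that of Lamb1 to Lamc1 1.66 and 1.67. Macrophage-like cells, 55 at time 1, had 4 chains at 10 CPM or more: Lamc1, Lama5, Col9a2 and Col18a1.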
